A study of Mus musculus with 9 samples.

Results

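The regions described here are stretches of the mouse genome that every antibody used in the study recovered, the nonspecific one included. They were found by joining touching or overlapping intervals of the 4 KDM6A interval lists into regions, and by keeping those on autosomes other than 11 that held an interval of all 4 lists and shared at least 1 bp with an interval of the IgG list. The rule kept 851 of 82424 merged regions. On these chromosomes 1163 regions held an interval of all 4 KDM6A lists, so that 73.2% of them also met IgG, and the other 312 did not. The presence of intervals chose the regions. Their level over background is therefore given as a description, and tests are given for differences between libraries, which the rule did not use.

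Chromatin immunoprecipitation with sequencing (ChIP-seq) was done on Sv129 mouse embryonic stem cells, grown on gelatin with leukemia inhibitory factor. The control group was 2 KDM6A libraries of cells with the genotype label WT and titles that begin with C, and the MTX group was 2 KDM6A libraries of cells labelled as folate deficiency, collected 24 h after 0.12 µM MTX was added. A single IgG library came from MTX cells, no IgG library of control cells was analysed here, and the 4 inputs had no interval list used here. All groups share 1 cell line, bear the same treatment label (neurodevelopment) and carry the same protocol text, which names the dose, so that the groups rest on titles and genotype labels. Nothing in the labels says whether libraries came from separate cultures, so a spread between them may be technical. MTX is the usual short form of methotrexate, an antifolate that blocks dihydrofolate reductase. Interval lists hold no expression, so the stem cell label could not be checked against marker levels.

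KDM6A, also called UTX, is an X-linked demethylase that removes methyl groups from lysine 27 of histone H3, the mark set by Polycomb repressive complex 2. It works within the KMT2C and KMT2D complexes, which methylate lysine 4 of histone H3 at enhancers. IgG is an antibody without a chosen target, and its immunoprecipitation measures the DNA that is recovered without recognition of KDM6A. Stretches of DNA with more reads than the assembly predicts, such as repeat arrays collapsed in the assembly, are known to give intervals in ChIP-seq whatever the antibody.

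Promoters in the widest shared stretches are shown first, since they are the places where all 5 lists covered the same gene start. Of the RefSeq promoter windows (GRCm38.p6, the build of mm10; 250 bases before to 50 after a start), 100 windows of 94 genes lay whole inside a region, in 83 of the 851 regions (9.75%). Inside an interval of every list lay 28 of these windows. The first 4 sequences are those of genes without a predicted symbol in the regions with the most bases covered by all 5 lists, 1 window per region and the first by symbol where a region holds several, and the fifth is the pluripotency gene Zfp281. Each is written 5′ to 3′ on the strand of the gene, with CG dinucleotides in capitals. Glo1, which encodes glyoxalase 1, lies at chr17:30612610-30612909, minus strand. Pdia5, a protein disulfide isomerase, lies at chr16:35490824-35491123, minus strand. Chil4, a chitinase-like protein, lies at chr3:106219430-106219729, minus strand. Mroh2a, a HEAT repeat gene, lies at chr1:88226770-88227069, plus strand. Zfp281, a zinc finger regulator of pluripotency, lies at chr1:136624651-136624950, plus strand.
Glo1: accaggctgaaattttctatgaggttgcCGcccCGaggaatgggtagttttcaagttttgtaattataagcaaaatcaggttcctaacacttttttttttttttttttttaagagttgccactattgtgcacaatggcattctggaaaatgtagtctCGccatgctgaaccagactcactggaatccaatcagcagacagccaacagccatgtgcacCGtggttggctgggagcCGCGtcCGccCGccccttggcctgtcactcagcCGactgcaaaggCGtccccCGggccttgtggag
Pdia5: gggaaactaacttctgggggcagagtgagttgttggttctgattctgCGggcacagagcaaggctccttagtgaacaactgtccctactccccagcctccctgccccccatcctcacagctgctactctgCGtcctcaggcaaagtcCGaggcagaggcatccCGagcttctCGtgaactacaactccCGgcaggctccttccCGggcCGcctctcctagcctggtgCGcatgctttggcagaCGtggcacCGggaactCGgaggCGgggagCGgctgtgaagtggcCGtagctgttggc
Chil4: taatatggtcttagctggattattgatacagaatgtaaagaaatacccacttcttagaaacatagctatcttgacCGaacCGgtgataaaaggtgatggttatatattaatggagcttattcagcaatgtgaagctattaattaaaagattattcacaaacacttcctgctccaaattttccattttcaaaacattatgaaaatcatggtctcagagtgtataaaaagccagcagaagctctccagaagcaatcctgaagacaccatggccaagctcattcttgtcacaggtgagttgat
Mroh2a: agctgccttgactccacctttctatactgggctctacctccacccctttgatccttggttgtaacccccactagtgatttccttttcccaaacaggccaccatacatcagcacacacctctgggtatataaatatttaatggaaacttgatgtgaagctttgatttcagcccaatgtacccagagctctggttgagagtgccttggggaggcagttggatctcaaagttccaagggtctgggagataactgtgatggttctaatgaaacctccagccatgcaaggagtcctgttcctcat
Zfp281: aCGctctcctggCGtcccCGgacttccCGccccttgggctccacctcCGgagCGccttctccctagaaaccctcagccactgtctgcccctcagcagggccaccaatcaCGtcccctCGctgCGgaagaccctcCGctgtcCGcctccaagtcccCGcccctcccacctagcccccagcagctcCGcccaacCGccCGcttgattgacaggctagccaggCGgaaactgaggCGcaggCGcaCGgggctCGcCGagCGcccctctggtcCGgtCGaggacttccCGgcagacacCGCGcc
These promoters differed widely in base composition, with 11 CG in Glo1, 15 in Pdia5, 2 in Chil4, 0 in Mroh2a and 27 in Zfp281. The GC content was 49.7% in Glo1, 62.0% in Pdia5, 36% in Chil4, 47.3% in Mroh2a and 70.7% in Zfp281. The windows of the first 4 genes lay inside an interval of all 5 lists, and that of Zfp281 lay inside an interval of control library 1 and of IgG only. Over the 100 windows the median GC content was 46.7% and the median number of CG was 4, against 52.7% and 7 over all 29107 windows on these chromosomes. Low medians were not particular to regions that met IgG. They were 40.7% and 2 in the 29 windows of regions of all 4 KDM6A lists without IgG. In regions of 3 KDM6A lists they were 46.5% and 4.5. Regions of 2 lists had 52.8% and 11, and regions of 1 list had 54% and 12. The letters TATAAA, on either strand, stood in 16% of the 100 windows and in 13.7% of all windows. In the 29 windows of regions without IgG the share was 24.1%.

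The regions were wide and recovered in pieces. Their median width was 11600 bp (quartiles 7900 and 16000, range 400 to 177600), and together they covered 11.6 Mb. The IgG list overlapped a median of 4600 bp of a region, or 49.1% of its width, and 38 regions lay wholly inside IgG intervals. In all, 1290 IgG intervals, 5.65% of the IgG list, lay in the regions. A base covered by all 5 lists was found in 431 of 851 regions (50.6%), where the median length of such bases was 2400 bp. The other 420 regions had no base in common to all 5 lists, and in 81 of them all 4 KDM6A lists shared a base that the IgG list did not cover.

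Reads stood only a little above background in these regions, in all 5 libraries. The level is the log2 of immunoprecipitated reads over background reads, scaled by the constant of each deposited list, and summed over the intervals that touch a region. The median log2 fold was 0.40 in control library 1, 0.31 in control library 2, 0.35 in MTX library 1, 0.39 in MTX library 2 and 0.35 in IgG. These medians were lower than those of all single intervals on the same chromosomes, which were 0.73, 0.54, 0.56, 0.64 and 0.62 in the same order. The units differ, since a region can sum several intervals. Regions of all 4 KDM6A lists without IgG also lay under the single intervals, at 0.53 and 0.41 in control and 0.44 and 0.49 in MTX. The IgG median lay inside the range of the 4 KDM6A medians. The fold was above 1 in all 5 libraries in 571 regions (67.1%), below 1 in all 5 in 17, above 1.5 in all 5 in 14 and above 2 in all 5 in 0. A deposited adjusted p under 0.05 was reached in all 5 lists in 371 regions (43.6%). Depth was modest: the median number of reads in a region was 170 and 207 for control, 196 and 236 for MTX and 229 for IgG, so a single region is counted with limited precision.

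**Figure D1:**
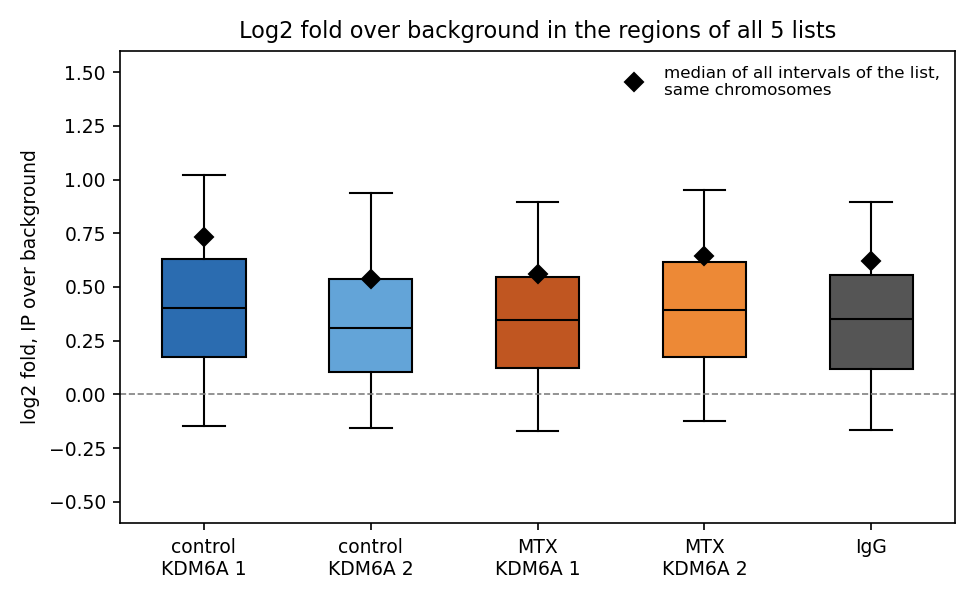
Log2 fold of immunoprecipitated over background reads (y axis) in the 851 regions, for each of the 5 libraries (x axis); boxes span the quartiles with the median as a line, and whiskers reach from the 5th to the 95th percentile. Diamonds are the medians of all intervals of each list on the same chromosomes, which lie above each box's median, and the box of IgG (median 0.35) lies among those of KDM6A (0.31 to 0.40).

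The order of the 5 libraries differed from region to region. IgG lay within the range of the 4 KDM6A log2 folds in 569 regions (66.9%), above all 4 in 124 (14.6%) and below all 4 in 158 (18.6%). Over all 1601 regions that held all 5 lists, on every chromosome, IgG was above all 4 in 16.5% and below all 4 in 18.5%. IgG was above MTX library 1 in 421 of 851 regions, and the median of their difference was -0.0038 on the log2 scale. Across regions, the log2 folds of MTX library 1 and IgG had a Pearson r of 0.64, and the other 9 pairs of libraries had r from 0.35 to 0.51. In the 52 intervals with identical bounds in the lists of MTX library 1 and IgG, the background counts were equal 52 times, and between KDM6A lists at most 3 times per pair, so this pair appears to share the denominator of its folds. The part of that shared denominator in the higher r was not tested.

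Background itself was high where the 5 lists met. Background reads per kb had a median of 30.2 and 30.7 for control, 30.7 and 31.2 for MTX and 30.4 for IgG. The list medians, over single intervals, were 22.6, 24.0, 24.4, 24.6 and 23.3. In regions of all 4 KDM6A lists without IgG the medians were 25.5 and 26.3 in control and 26.6 and 28.0 in MTX. In the 431 regions with a base of all 5 lists the background was 1.80 times the list median (median over regions of the mean of 5 lists), and in the 420 without one it was 1.11 times. The log2 fold went the other way, with medians of 0.28, 0.17, 0.19, 0.25 and 0.22 (control 1 and 2, MTX 1 and 2, IgG) where all 5 lists met. Where they did not meet, the medians were 0.52, 0.45, 0.47, 0.53 and 0.47 in the same order. Background is the denominator of the fold, so these 2 measures are not independent, and this split was chosen after the values were seen. Sorted by background into 4 sets of 212 or 213 regions, 15.0%, 21.1%, 67.5% and 99.1% held a base of all 5 lists, from the lowest set to the highest. A fold above 1 in all 5 libraries was found in 208, 184, 128 and 51 regions of the same sets.

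**Figure D2:**
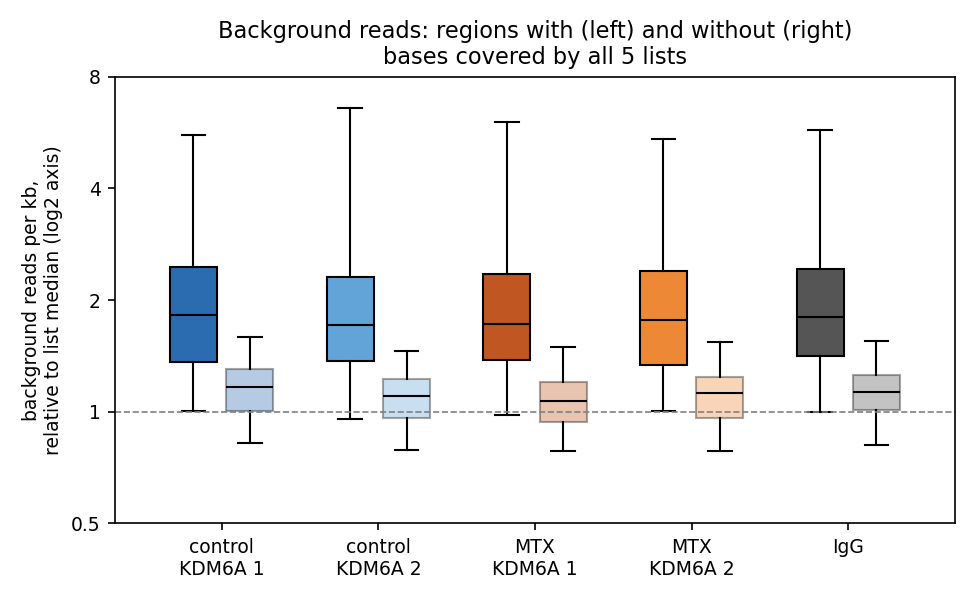
Background reads per kb divided by the list median (y axis, log2 scale) for each library (x axis); in each pair the left, darker box is the 431 regions with bases covered by all 5 lists and the right, paler box the 420 without. Boxes span the quartiles with the median as a line, whiskers run from the 5th to the 95th percentile, and in every library the left box lies higher than the right one.

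A small set of regions held much of the reads. In 109 regions (12.8%) the background was at least 2 times the list median in all 5 lists, a threshold chosen after the values were seen, and all 109 held a base of all 5 lists. They took 50.6% to 57.0% of the reads in the 851 regions, depending on the library, and 30 of them lay on chromosome 4 and 11 on chromosome 17. The 5 regions with the highest mean rank of background reads per kb over the 5 lists took 30.7% to 38.4% of the reads in 0.194% of the bases. They lay on chromosomes 12, 2, 9, 6 and 14, and those on chromosomes 6 and 14 shared the fourth place with a mean rank of 846.6. The one on chromosome 6 lies in Chl1, a neural cell adhesion gene, and the other 4 had no named protein-coding gene at an end or around the midpoint.

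The region with the most reads among these 5, on chromosome 2 from 98661601 to 98669200, held 86505 and 149165 immunoprecipitated reads in control, 109654 and 158339 in MTX and 124887 in IgG. Its background reads were 87651, 135451, 98289, 132164 and 98321 in the same order. IgG lay between the KDM6A libraries in both counts, and the log2 folds were 0.38, 0.20, 0.26, 0.42 and 0.40. On chromosome 12, from 3109601 to 3112000, the log2 folds were 0.30 and 0.19 in control, 0.26 and 0.22 in MTX and 0.02 in IgG, with IgG the lowest of the 5. This region was covered by all 5 lists over 400 bp. On chromosome 9, from 35302601 to 35306400, the log2 folds were 0.34, 0.14, 0.21, 0.27 and 0.26. On chromosome 14, from 19414801 to 19419400, they were 0.20, 0.10, 0.20 and 0.18 in KDM6A and -0.03 in IgG. At Chl1, from 103647801 to 103652000, they were 0.24 and 0.14 in control, 0.32 and 0.16 in MTX and 0.05 in IgG, again with IgG the lowest. In none of the 5 regions did any library reach a log2 fold of 0.5, although each library held at least 1128 reads there.

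In 3 of the 4 widest regions, reads were slightly under the scaled background in all 5 libraries. The widest, 177600 bp on chromosome 17 from 30446401 to 30624000, lies at Btbd9, a BTB domain gene, and Glo1, with 109000 bp covered by all 5 lists. It held 5495 and 7186 reads in control, 7526 and 7004 in MTX and 7192 in IgG, and its log2 folds were -0.11 and -0.08 in control, -0.12 and -0.21 in MTX and -0.16 in IgG. All 5 values were negative, and IgG lay between the MTX libraries. Next to it, 130200 bp from 30631601 to 30761800 around Dnah8, an axonemal dynein heavy chain, had log2 folds of -0.11, -0.06, -0.10, -0.21 and -0.23. On chromosome 16, 91400 bp from 35472601 to 35564000 with the ends of Pdia5 and Sema5b, a semaphorin, had -0.07, -0.04, -0.14, -0.08 and -0.18. The third widest, 115600 bp on chromosome 13 from 12827201 to 12942800, had positive values in all 5 libraries, 0.34, 0.20, 0.29, 0.27 and 0.33. There all 5 lists covered 109400 bp, the most of any region.

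Among the regions of at least 2 kb covered most completely by all 5 lists, 2 lay on chromosome 4. The region inside Zfp980, a zinc finger gene, from 145678201 to 145680600, had every base covered by all 5 lists. Its log2 folds were -0.03 and -0.15 in control, 0.65 and -0.06 in MTX and -0.08 in IgG, so MTX library 1 stood above the other 4. The region from 147094201 to 147097000, also covered over its whole 2800 bp, had 0.08, -0.07, -0.06, -0.16 and -0.02. At Ifi202b, an interferon-inducible gene on chromosome 1, the region from 173973201 to 173982400 had log2 folds of 0.41 and 0.23 in control, 0.48 and 0.13 in MTX and 0.48 in IgG. MTX library 1 and IgG were the highest there. The fourth, on chromosome 9 from 123927401 to 123934400, had 0.06 in IgG and -0.02 to -0.08 in KDM6A.

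The regions with the highest value in their lowest library were of another kind: none of the 8 held a base of all 5 lists. They were chosen by these values, which are given as a description. The first lies in Tafa2, which encodes a secreted neuronal protein, on chromosome 10 from 123407201 to 123420000, and its log2 fold was 0.74 and 0.97 in control, 1.24 and 0.84 in MTX and 1.65 in IgG. IgG was the highest of the 5 there, from 97 reads over 32 background reads. The second, on chromosome 3 from 134737401 to 134746200 without a gene, had 1.35, 0.71, 0.99, 0.98 and 0.96, with control library 1 the highest. The third lies at the olfactory receptor genes Olfr787 and Olfr788 on chromosome 10, from 129464601 to 129475400, and had 0.80 and 0.73 in control, 0.88 and 1.08 in MTX and 0.67 in IgG. There IgG was below all 4 KDM6A libraries. Olfr1106, Olfr477 and Olfr1148, further odorant receptor genes, and Cast with Erap1, which encode calpastatin and an aminopeptidase, account for 4 of the remaining 5, and the fifth lies on chromosome 15 without a gene. IgG was the highest library in Olfr1148 (1.42) and the lowest in Olfr1106 (0.64).

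The highest IgG log2 folds overall were 1.83 on chromosome 16 from 84447801 to 84453800, 1.65 at Tafa2, 1.48 at Dennd4a, which encodes a DENN domain protein, and 1.46 on chromosome 1 from 122467401 to 122476800. All 4 rest on few IgG bases, 1400, 2400, 2200 and 4600 bp, with 82, 97, 129 and 204 IgG reads. In the first of them the KDM6A libraries had 0.94 and 0.31 in control and 1.25 and 0.68 in MTX.

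**Figure D3:**
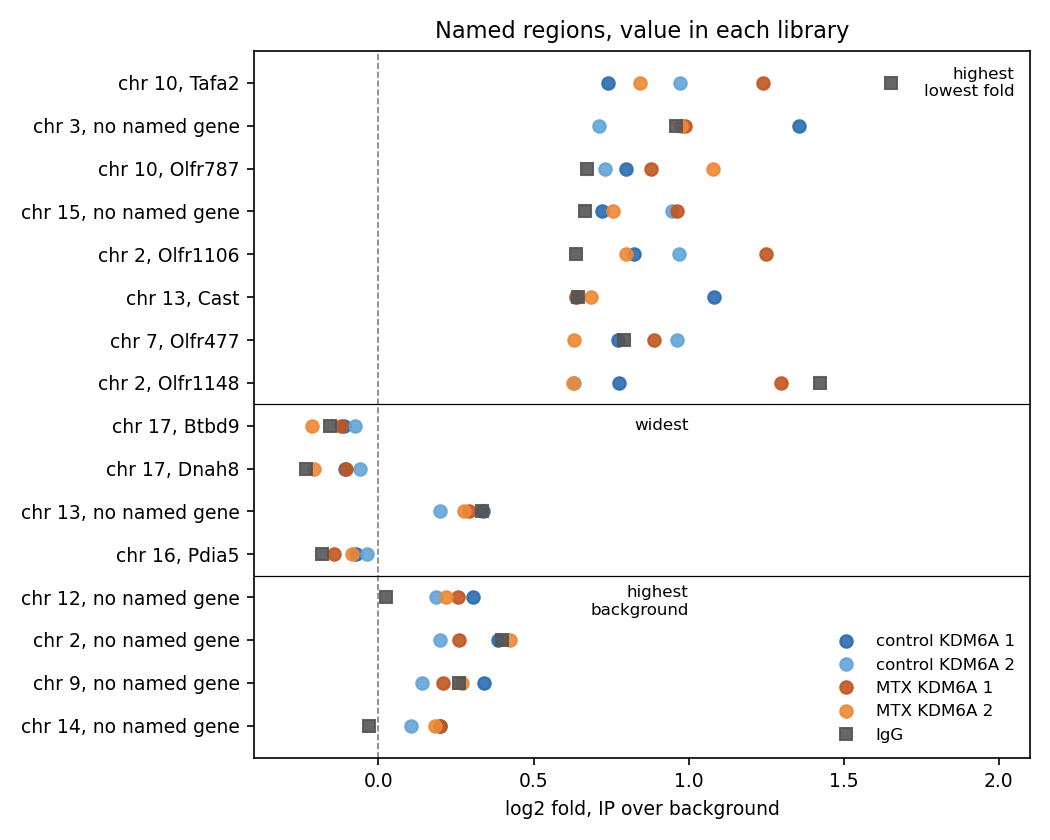
Log2 fold over background (x axis) of 16 named regions (y axis, by chromosome and gene); circles are the 4 KDM6A libraries and squares the IgG library. The top 8, with the highest value in their lowest library, lie between 0.63 and 1.65, while the 4 widest and 4 of the 5 with the highest background (Chl1 is not drawn) lie between -0.23 and 0.42.

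The regions lay on all 18 chromosomes considered, unevenly. Chromosome 1 held 140, chromosome 4 held 86 and chromosome 17 held 72, together 298 of the 851. Per 10 Mb, this was 7.17, 5.50 and 7.60, and the lowest was 0.69 on chromosome 19. With regions within 100 kb of each other taken as a group, a distance chosen after the positions were seen, 375 regions stood alone, 476 had at least 1 neighbour, and 27 groups of 5 or more, on 13 chromosomes, held 194. The largest, 23 regions on chromosome 1 from 117846601 to 118688400, contains Tsn, Nifk, Clasp1 and Tfcp2l1, of which Tfcp2l1 is a transcription factor of naive pluripotency. Median log2 folds there were 0.44 and 0.32 in control, 0.19 and 0.34 in MTX and 0.29 in IgG. On chromosome 4, from 147230801 to 147619800, 15 regions lie in a span with 5 zinc finger genes, Zfp978, Zfp988, Zfp982, Zfp985 and Zfp979, which are members of a multigene family; near-identical copies can share reads, and mapping was not examined here. Background reads per kb were 54.6 to 68.3 there, and median log2 folds were 0.13 and 0.14 in control, 0.04 and 0.01 in MTX and 0.01 in IgG. On chromosome 17, from 30446401 to 30925600, 6 regions lie at Btbd9, Glo1, Dnah8 and Glp1r, the receptor of glucagon-like peptide 1. Here the lists covered 377 and 391.4 kb in control, 417.2 and 377.4 kb in MTX and 400 kb in IgG, out of 479.2 kb. The IgG list lay within the range of the KDM6A lists.

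Other groups lay at genes of varied kinds. On chromosome 1, 10 regions from 119547601 to 119923800 lie around Epb41l5, Ptpn4, Tmem177 and Cfap221, where Ptpn4 is a tyrosine phosphatase, with median log2 folds of 0.27 and 0.10 in control, 0.13 and 0.20 in MTX and 0.15 in IgG. On chromosome 5, 10 regions from 149081601 to 149384200 lie around Uspl1, Alox5ap and Medag, where Alox5ap takes part in leukotriene synthesis, with group medians of -0.03, 0.04, -0.03, 0.04 and -0.03. A group of 5 regions on chromosome 3, from 106122201 to 106311400, holds the chitinase family genes Chia1, Chil3 and Chil4, with 0.36, 0.29, 0.36, 0.28 and 0.38, IgG being the highest. At the interferon-inducible genes Mndal, Ifi211, Ifi203 and Ifi202b on chromosome 1, 5 regions from 173844401 to 173982400 had 0.41, 0.23, 0.48, 0.46 and 0.48. At H2-T3, a histocompatibility gene on chromosome 17, 5 regions from 36059401 to 36192600 had -0.01, -0.04, 0.05, -0.17 and -0.08. A further group of 3 zinc finger genes on chromosome 4, Zfp992, Zfp981 and Zfp993, holds 6 regions from 146425401 to 146541400, with 72.9 to 80.0 background reads per kb, the highest of the 27 groups by their median over lists, and log2 folds of 0.07, 0.11, 0.01, -0.01 and 0.02. Syt1, a synaptic vesicle calcium sensor, lies at 5 regions on chromosome 10 from 108646001 to 108860400, with low background, 21.3 to 27.6 reads per kb, and higher log2 folds, 0.87, 0.51, 0.36, 0.66 and 0.49. Among the groups named here, IgG lay outside the KDM6A range at the chitinase genes, where it was highest, and in the group around Zfp978, where it was lowest, and within that range in the others.

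**Figure D4:**
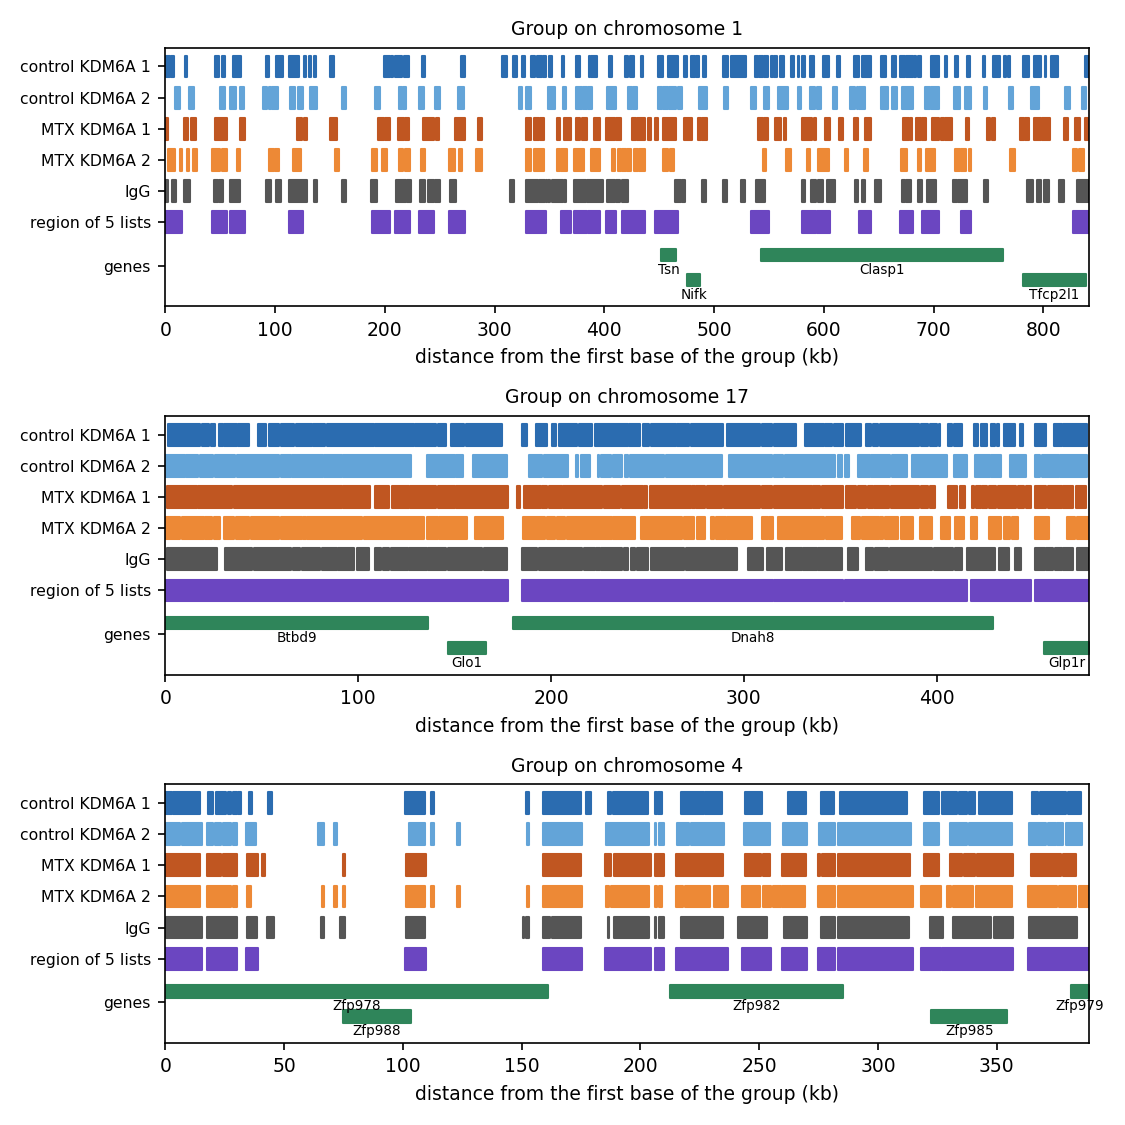
Intervals of the 5 lists (coloured lanes), the regions they form (lane below) and genes (bottom lane) along the 3 groups on chromosomes 1, 17 and 4, with distance from the first base of the group in kb on the x axis. On chromosome 17 each of the 5 lists covers 377 to 417.2 kb of 479.2 kb, and on chromosome 1 it covers 216.4 to 292 kb of 841.8 kb.

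**Figure D5:**
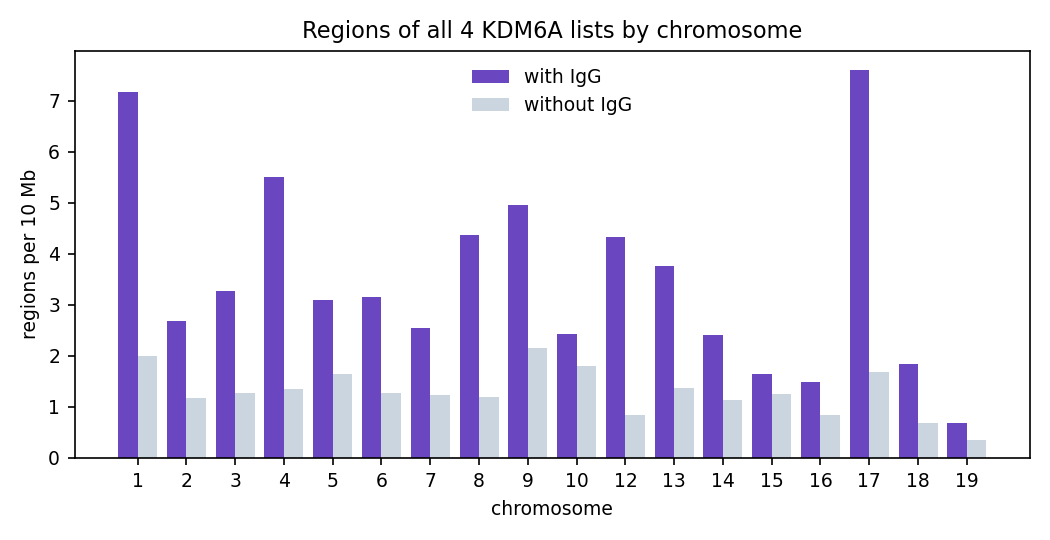
Regions of all 4 KDM6A lists per 10 Mb (y axis) on each chromosome (x axis), with an IgG interval (purple bars) and without one (grey bars). The purple bars are highest on chromosomes 17, 1 and 4 (7.60, 7.17 and 5.50), and the grey bars do not exceed 2.15.

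The regions were read against gene lists by gene ends and by gene bodies. Of 19052 protein-coding genes on these chromosomes, 170 (0.89%) had an end within 1 kb of a region, in 154 regions. Of the pluripotency genes 2 of 28 did, Zfp281 and Tfcp2l1, and of the neural tube and patterning genes 1 of 28, Gli2, a Hedgehog effector. None of the 9 genes of the KMT2C and KMT2D complexes and KDM6 enzymes, of the 8 of Polycomb repressive complex 2, of the 24 of folate and one-carbon metabolism, of the 22 p53 and DNA damage genes, of the 20 germline genes, of the 22 neuronal adhesion and very long genes, of the 29 Hox cluster genes, of the 85 ribosomal protein genes or of the 19 fibroblast genes did. Gene bodies overlapped a region in 2.15% of all genes. The counts were 1 of 9 in the KMT2C, KMT2D and KDM6 list and 1 of 8 in Polycomb repressive complex 2. They were 3 of 28 neural genes, 3 of 22 neuronal adhesion and very long genes and 2 of 28 pluripotency genes. Of the p53 and DNA damage genes 1 of 22 overlapped, of the germline genes 1 of 20 and of the ribosomal protein genes 1 of 85. No folate, fibroblast or Hox gene did. Several of these counts are a single gene, gene length was not taken into account, and no share was tested. The region at Zfp281, from 136623801 to 136635400, had log2 folds of 0.25 and 0.68 in control, 0.06 and 0.51 in MTX and 0.05 in IgG. The values of MTX library 1 and IgG were the lowest, and the control and MTX values overlapped. At Tfcp2l1, from 118673401 to 118688400, they were 0.01 and 0.01 in control, -0.24 and -0.11 in MTX and -0.30 in IgG. Both MTX values lay below both control values, with IgG lowest. At Gli2, from 119050001 to 119058200, they were 0.33 and 0.25 in control, 0.08 and -0.06 in MTX and -0.04 in IgG. Both MTX values again lay below both control values, and IgG lay between the MTX values. None of the 3 passed the test of MTX minus control in edgeR.

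Of the multigene family lists, 4 had shares above that of all genes and 5 had none. Of the Zfp genes 12 of 370 (3.24%) had an end within 1 kb of a region, and of the major histocompatibility genes 3 of 37 (8.11%). Of the vomeronasal receptors, which detect pheromones, 7 of 352 (1.99%) did, and of the olfactory receptors 16 of 1018 (1.57%). The count by ends takes in 1 kb beyond a region, and the count by bodies does not. By gene bodies the shares were 5.41% for Zfp, 8.11% for histocompatibility, 1.99% for vomeronasal and 1.28% for olfactory genes against 2.15% of all genes, so that both receptor families lay above the share of all genes by their ends and below it by their bodies. No gene of the histone, protocadherin, keratin-associated and defensin, cytochrome P450 or serpin lists had an end within 1 kb of a region or a body overlapping one. Neighbours share regions and near-identical copies can share reads, so these are counts and carry no test. The vomeronasal gene Vmn2r74 on chromosome 7 lies in a region at log2 folds of 0.68 and 0.41 in control, 0.34 and 0.48 in MTX and 0.44 in IgG. The histocompatibility genes H2-Q6 and H2-Q7 share a region on chromosome 17 from 35428201 to 35444800, with 0.06 and -0.23 in control, -0.05 and -0.19 in MTX and -0.13 in IgG. IgG lay within the range of the KDM6A libraries in both.

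No region passed the threshold between MTX and control cells. Reads were tested per region with edgeR's quasi-likelihood test with background as an offset, and Benjamini-Hochberg adjustment over all 2132 regions of the 4 KDM6A lists. These 2132 lie on every chromosome, 11 included, and take in the 851, so the shares of all regions below are no separate reference. Each library's reads were summed over its own intervals, so the counts of a region can come from different bases in each library. In 339 of the 851 regions, no base was shared by all 4 KDM6A lists. At an adjusted p under 0.05, 0 of 851 regions were higher and 0 lower, as over all regions tested (0% in each direction). At an unadjusted p under 0.05, 11 (1.29%) were higher and 20 (2.35%) lower, against 1.22% and 2.67% of all. DESeq2 called 0 of the 851 regions, with 21 at an unadjusted p under 0.05, and over all 2132 regions 0, with 52. For limma these were 0 of the 851, with 29, and over all 2132 regions 0, with 69. Both MTX log2 folds lay above both control values in 129 regions (15.2%) and below both in 137 (16.1%), shares near the 14.6% and 16.1% of all regions. The median difference was -0.01 and the median absolute difference 0.15, about the size of the median SD within a group, 0.16 in control and 0.14 in MTX (n = 2). With only intervals that touch a base of all 4 KDM6A lists, 512 of the 851 regions could be tested. There edgeR called 0 of them, and 20 had an unadjusted p under 0.05, against 44 of all 1184 regions tested. A region that misses the threshold with 2 libraries a group is not shown to be alike in both.

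The regions with the smallest p are named by rule, and none passed. The first of the higher ones, on chromosome 1 from 117888801 to 117903000 in the group around Tsn, had 198 and 167 reads in control, 467 and 446 in MTX and 246 in IgG. These counts came from unequal lengths: 7200 and 4800 bp in control, 11200 and 12400 bp in MTX and 6800 bp in IgG. Background reads were 226 and 164 in control, 306 and 298 in MTX and 176 in IgG. The region's log2 folds were 0.21 and 0.09 in control, 0.71 and 0.75 in MTX and 0.54 in IgG. The groups did not overlap, and IgG, from MTX cells, lay between them. The difference was 0.58 (SE 0.20), with an adjusted p of 1.00 in edgeR. The second, on chromosome 1 from 114564401 to 114568600, had log2 folds of -0.15 and 0.09 in control, 0.70 and 0.86 in MTX and 0.84 in IgG, a difference of 0.80 (SE 0.30). The third, on chromosome 15 from 75076201 to 75088400, had -0.33 and -0.46 in control, -0.18 and 0.03 in MTX and -0.17 in IgG, a difference of 0.32 (SE 0.12). In both, IgG lay with the MTX libraries, and the edgeR adjusted p was 1.00. The first of the lower ones, at Calcrl, the receptor of calcitonin-like peptides, on chromosome 2 from 84324801 to 84338800, had log2 folds of 1.47 and 0.82 in control, -0.10 and 0.79 in MTX and 0.37 in IgG. MTX library 2 was nearly as high as control library 2, and the difference was -0.79 (SE 0.29), with an adjusted p of 1.00 in edgeR. The second, at Tmem87a and Vps39, a vesicle tethering subunit, on chromosome 2 from 120353401 to 120362200, had 0.76 and 1.36 in control, 0.33 and 0.20 in MTX and 0.76 in IgG. Cdk8, a Mediator kinase, on chromosome 5 had 1.04 and 0.11 in control and 0.10 and 0.09 in MTX, so control library 1 stood apart there. A region on chromosome 3 from 15292601 to 15300400, at the predicted gene Gm9733, was named after its values were seen. Without control library 2, its log2 difference of MTX minus control was -3.00. The region's log2 folds were 3.46 and 0.54 in control, 0.41 and 0.52 in MTX and 0.82 in IgG. Control library 1 held 25 reads over 3 background reads in 200 bp there. The lone control library left in the fit without control library 2 is assumed to vary like the others.

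No region passed the threshold between MTX KDM6A and IgG, in either direction. This test took all 1601 regions of the 5 lists on every chromosome, the 851 included, with the control libraries in the fit for the spread. The single IgG library was assumed to vary like the KDM6A libraries. MTX library 1 appears to share its background reads with IgG, and the test took the libraries as independent. The effect of this on the difference was not tested. The regions had been kept for holding intervals of both antibodies, so the test bears on their levels where both were recovered and says nothing of other places. At an edgeR adjusted p under 0.05, 0 of 851 regions were higher in KDM6A and 0 lower, where over all 1601 regions 0% were higher and 0.125% lower. At an unadjusted p under 0.05 in edgeR, 5 regions (0.588%) were higher and 7 (0.823%) lower, against 0.625% and 1.75% of all. DESeq2 called 0 of the 851, with 6 at an unadjusted p under 0.05, and over all 1601 regions 1, with 17. For limma these were 0 of the 851, with 19, and over all 1601 regions 0, with 50. The median log2 difference was 0.03. Here too, each library's reads came from its own intervals. With only intervals that touch a base of all 5 lists, 431 of the 851 regions could be tested. There edgeR called 0 of them, and 1 had an unadjusted p under 0.05, against 5 of all 772 regions tested. A missed threshold against 1 IgG library does not show that the antibodies recovered equal amounts.

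The lowest edgeR adjusted p was 0.27, at Dennd4a on chromosome 9 from 64840401 to 64862800. Its log2 folds were 0.23 and 0.56 in control, 0.41 and 0.32 in MTX and 1.48 in IgG, so IgG was above all 4, from 129 reads over 48 background reads in 1 interval. The difference of KDM6A from IgG was -1.11 (SE 0.29), and it was also -1.11 without control library 1. Of the 3 regions above IgG with the smallest p, 1 lies in a named gene, Hcrtr2, an orexin receptor gene, on chromosome 9 from 76280601 to 76290800. It had 0.95 and 0.88 in control, 1.14 and 1.14 in MTX and 0.32 in IgG. The difference was 0.81 (SE 0.35), with an edgeR adjusted p of 1.00. Zc3h7a, a zinc finger gene on chromosome 16, had 0.46, 0.12, 0.14, 0.10 and 0.88 in IgG, and Ambra1, an autophagy regulator on chromosome 2, had 0.46, 0.02, 0.24, 0.25 and 0.94 in IgG.

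Compared with the 312 regions of all 4 KDM6A lists without IgG, the regions were a little wider, with a median of 11600 against 10100 bp. Background per kb was higher in each of the 4 KDM6A libraries, by 4.08 ± 0.647 (SD, n = 4), and the median log2 fold was lower in each, by 0.11 ± 0.02. An exact sign-flip test over the 4 libraries gave p = 0.125 for both (two-sided), the smallest p it can give, so the design cannot reach 0.05. The 4 libraries, control and MTX together, were read over the same 2 sets of regions. The SD and p thus measure spread between libraries and not spread between regions. Among regions 8 to 16 kb wide, 426 with and 196 without IgG, background was 27.3 to 28.7 against 24.8 to 27.2 reads per kb. The median log2 folds in that range were 0.47, 0.39, 0.39 and 0.46 in control 1 and 2 and MTX 1 and 2, against 0.55, 0.41, 0.45 and 0.50 without IgG, a gap that was smaller in each library than over all widths. A gene end lay within 1 kb of 18.1% of the regions (exact 95% interval 15.6% to 20.9%) and of 9.94% of those without IgG (6.85% to 13.8%), and in the 8 to 16 kb range of 14.1% and 9.69%. The midpoint lay inside a gene in 55.1% (51.7% to 58.5%) against 67.0% (61.5% to 72.2%). These intervals cover counting error only, and neighbouring regions are not independent. The difference in the gene-end share was not tested.

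The threshold of the rule is 1 bp of IgG overlap. Just inside, 5 regions overlapped IgG by 200 bp, the size of the grid of the lists. The first, inside Cntnap5a, a neuronal adhesion gene, on chromosome 1 from 115929401 to 115936400, had a log2 fold of 0.64 and 1.69 in control, 0.56 and 1.08 in MTX and 0.58 in IgG. A region with the median overlap, on chromosome 6 from 132097401 to 132102400, had 0.90 and 0.62 in control, 0.34 and 0.62 in MTX and 0.30 in IgG. Just outside, 3 regions lay against an IgG interval with no base between, the first on chromosome 15 from 50429401 to 50434400 with 0.67 and 0.90 in control and 0.39 and 0.76 in MTX. In all, 45 of the 312 regions without IgG lay within 2 kb of an IgG interval.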

How the data were processed

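The interval lists of 4 KDM6A libraries and 1 IgG library were used; groups and replicate numbers came from the titles, per the labels. Reads were aligned to mm10 with Bowtie2, per the submitters' processing notes; the interval caller is not named in the sources used here. Each deposited list gives, per interval, the whole-number counts of immunoprecipitated and of background reads; intervals were called per library on a 200 bp grid. The deposited fold is the ratio of these counts times 1 constant per list. The deposited p-value equals a Poisson tail probability given the scaled background reads (100% of those above fold 1 matched, to a log10 tolerance of 0.01). The lists were not filtered on fold or p, and reads outside intervals are not in them, so library depth is unknown; reads in the intervals numbered 3251202 to 4192029 per library.

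Intervals were merged and overlapped in Python 3.11.15, with pandas 2.3.3, numpy 2.4.6, scipy 1.17.1 and matplotlib 3.10.9. Reads were summed over whole intervals that touch a region, which can reach beyond it: 28 IgG intervals touched 2 or more regions. Tests were run with edgeR 4.0.16 (quasi-likelihood test), DESeq2 1.42.0 and limma 3.58.1 (pseudocount 0.5) in R 4.3.3, with Benjamini-Hochberg adjustment. The edgeR test was tried on simulated counts, at an adjusted p under 0.05. For MTX minus control it recovered 24% of changes of 1.5-fold and 69% of changes of 2-fold. For MTX KDM6A minus IgG it recovered 22% and 63%, so many changes of these sizes would be missed. Genes came from a RefSeq table of spans without strand or exons, so a region could not be placed in an exon, an intron or a UTR. The members and gene lists were chosen with earlier results of these data known. Named were the 8 regions with the highest lowest log2 fold, the 4 with the highest IgG fold, the 4 widest, the 4 most covered by all 5 lists, the 4 with the highest mean rank of background (5 with a tie), the 3 with the smallest p in each direction of each test, and those at the edge of the rule; genes were those without a predicted symbol at their ends or midpoints, and up to 4 per gene list. Alternatives tried were the overlap with IgG, filters on the deposited p, normalization, tool, read filter, replicate block, leaving out each library and, added after seeing the data, region width and grouping.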

Additional observations from a re-analysis of the deposited data

How the results depend on the processing

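Of 136 alternative values, 111 stayed near the main value and 25 moved. The number of regions, 851, was 425 with at least 50% of the region covered by IgG, 361 with a deposited adjusted p under 0.05, 68 in the better 50% of each list, 431 with a base covered by all 5 lists and 1585 with chromosomes 11, X and Y kept; with 1 KDM6A library left out it was 969 to 1210. The share at gene ends was 2.70% by midpoint and 14.1% among regions 8 to 16 kb wide, and 15.0% to 16.2% with 1 library left out. The share inside genes was 62.2% by any overlap and 59.9% at 8 to 16 kb. With a deposited adjusted p under 0.05 the median log2 fold was 0.57 and 0.50 in control, 0.52 and 0.55 in MTX and 0.51 in IgG. Over intervals that touch a base of every list it was 0.28 and 0.17 in control, 0.19 and 0.25 in MTX and 0.21 in IgG. Background per kb there was 41.2, 41.4, 42.9, 43.6 and 42.0 in the same order. At 8 to 16 kb, background per kb was 27.3 and 27.9 in control, 27.4 and 28.7 in MTX and 27.9 in IgG. With 1 KDM6A library left out, the median log2 difference over the 851 regions was -0.04 to 0.06 for MTX minus control. For MTX KDM6A minus IgG it was 0.004 to 0.04. Each of these fits leaves 1 library in a group, so calls from them are not given. Same-numbered libraries did not deviate together (r = 0.0047 over 2132 regions), so the numbers were not taken as pairs, and a fit with the replicate block called 0 of the 851 regions in both comparisons (1 and 2 over all regions tested). The alternatives by region width and grouping were chosen after seeing the data.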
